A study of Mus musculus with 2 samples.

Results

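The rodent family of miR-297, miR-466, miR-467 and miR-669 is a large set of short miRNAs that is found in mouse and rat and is built largely of simple repeats of U and G or of A and C. It was followed here in exosomes, the small vesicles that cells release, from BMSCs, the mesenchymal stem cells of mouse bone marrow, which are multipotent stromal cells. Members were taken by name, as every mouse miRNA on the array called miR-297, miR-466, miR-467 or miR-669 with a letter, whichever its arm. This gave 61 members of the 1881 miRNAs on the array, of which 3 were named miR-297, 23 miR-466, 12 miR-467 and 23 miR-669. The 3p arm was named for 26 members, the 5p arm for 25 and no arm for 10. The rule used the names alone and no measured value.

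The study collected medium from BMSCs of C57BL/6 mice after 72 h in normoxia or in a chamber at 0.2% oxygen, isolated the exosomes and hybridised Cy3-labelled RNA to an Agilent miRNA array with 1 colour. The cells of both conditions came from a supplier, whose number of animals is not given in the sources used here, and grew in MEM with penicillin, streptomycin and serum freed of its own exosomes. No genetic change of the cells is described. The series holds 2 arrays, 1 per condition, from the same slide. No biological replicate exists, so no difference was tested and no p-value is given. Array position and oxygen level cannot be told apart. A signal is relative to the RNA put on the array, so fewer exosomes that carry a miRNA and fewer copies of it per exosome cannot be told apart either.

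A miRNA matures from a hairpin into a 5p and a 3p strand, and the bases 2 to 8 of the loaded strand, the seed, pair with target mRNAs. Most genes of this family lie as a long run of repeated hairpins inside an intron of Sfmbt2, an imprinted gene of the Polycomb group that is expressed from the paternal allele. The cluster is known for its expression in placenta and in early embryonic cells. A smaller number of members have genes of their own elsewhere in the genome. Members resemble each other in sequence, and whether a probe also took up signal from other members was not tested.

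The RefSeq table (GRCm38.p6) held a mature sequence for 7 of the 61 members, all with genes outside Sfmbt2. They are shown because 2 of them, miR-467f and miR-669n, were detected, because miR-466i-3p is the partner strand of the brightest member, and because they show the 2 kinds of repeat in the family. Capitals mark the seed. The gene positions are chr13:17747552-17747573 (plus strand) for miR-466i-3p, chr3:28419988-28420007 (plus strand) for miR-466q, chr11:69635419-69635439 (minus strand) for miR-467f and chr5:34732872-34732892 (minus strand) for miR-467g. The members that hold U and G repeats lie at chr10:60960802-60960824 (plus strand) for miR-466j, chr3:85467396-85467418 (plus strand) for miR-466k and chr3:115979905-115979924 (plus strand) for miR-669n.
miR-466i-3p: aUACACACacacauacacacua
miR-466q: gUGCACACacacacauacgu
miR-467f: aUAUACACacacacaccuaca
miR-467g: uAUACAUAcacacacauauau
miR-466j: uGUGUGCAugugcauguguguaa
miR-466k: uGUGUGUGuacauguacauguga
miR-669n: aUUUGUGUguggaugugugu

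The sequences fell into an A and C kind and a U and G kind. The longest unbroken run of alternating A and C was 11 bases in miR-466i-3p, 12 in miR-466q, 12 in miR-467f and 9 in miR-467g. The longest run of alternating U and G was 7 bases in miR-466j, 9 in miR-466k and 8 in miR-669n. miR-466i-3p shared a run of 14 bases with miR-466q and of 13 bases with miR-467f, whereas miR-466j and miR-466k shared 8. No seed of the 7 occurred in another array miRNA with a RefSeq sequence, so these 7 shared repeats and not seeds among themselves. The members without a sequence, miR-466i-5p among them, could not be compared. With 7 of 61 members matched, no share of a motif or seed over the family can be given.

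The 2 arrays differed in quality. Each carried 56430 miRNA spots. Of those left after outlier flags, 9.81% were well above background in normoxia and 8.50% in hypoxia. The median coefficient of variation between spots was 9.68% in normoxia and 15.8% in hypoxia, and the scanner software marked that value and the labelling spike-in signal of the hypoxia array as out of range. As a check of the label, 5 of 7 mesenchymal stromal miRNAs (such as miR-199a-3p and miR-143-3p) were detected on each array, none of 13 miRNAs known from pluripotent stem cells was detected on either, and of 7 blood cell miRNAs 3 were detected in normoxia and 1 in hypoxia. The part of these differences in the values below was not tested.

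To see which members the exosomes carried, detection was read first. A miRNA counted as detected where at least 1 of its probes had over 50% of the spots well above background. By this call 3 members were detected in normoxia (miR-466h-3p, miR-466i-5p and miR-467f) and 3 in hypoxia (miR-466i-5p, miR-669f-3p and miR-669n). Over all 1881 miRNAs the call held for 12% in normoxia and 10.6% in hypoxia. Of the family, 5 members were detected on either array and 56 on neither. Only miR-466i-5p was detected on both. Of the 4 members detected on 1 array, 2 were detected in normoxia and 2 in hypoxia, whereas on the whole array 45 miRNAs had normoxia as their sole array of detection and 19 had hypoxia. Most of the family was thus undetected in both kinds of exosome, as were 1637 of the 1881 miRNAs on the array.

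At the level of spots, 69 of 1774 member spots (3.89%) were well above background in normoxia and 58 of 1755 (3.30%) in hypoxia. miR-466i-5p supplied 30 of these on each array. Without it, 39 of 1744 spots (2.24%) remained in normoxia and 28 of 1725 (1.62%) in hypoxia. The share of spots over all miRNAs was 9.81% in normoxia and 8.50% in hypoxia. Counted by miRNA, 7 of the 61 members had at least 1 spot well above background in normoxia and 5 in hypoxia. Of all 1881 miRNAs, 14.3% had at least 1 in normoxia and 14% in hypoxia. In 53 members, with 142 probes, no spot was well above background on either array. Their probe means lay between -4.13 and 7.20 in normoxia and between -3.70 and 7.66 in hypoxia, on the linear scale of the processed signal, where a spot dimmer than its background falls below 0. The 7 negative control probes had means of 3.39 to 6.06 in normoxia and 3.08 to 5.94 in hypoxia, so those members' signals reached from below the controls to just above them.

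**Figure D1:**
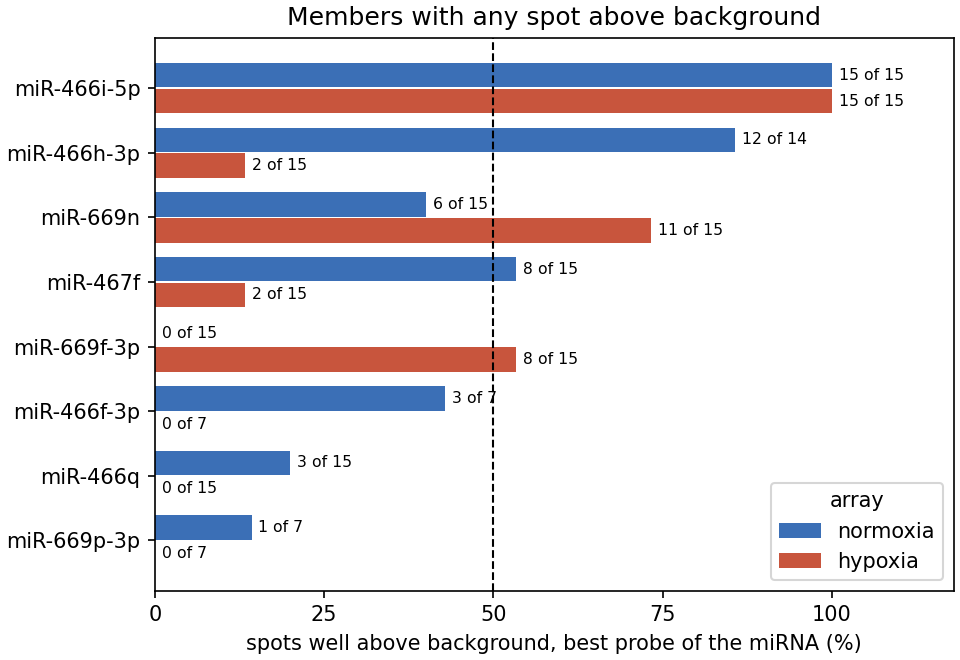
Share of spots well above background (%, horizontal axis) for the 8 members with any such spot, each at its probe with the largest share, in normoxia (blue) and hypoxia (red); counts of spots stand beside the bars and the dashed line marks the 50% that a detected probe must exceed. miR-466i-5p reached 100% on both arrays, and the other members detected crossed the line on 1 array each.

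Detection on either array held for 244 of the 1881 miRNAs, or 13%. By number, it held for 0 of 3 members of miR-297, 2 of 23 of miR-466, 1 of 12 of miR-467 and 2 of 23 of miR-669. By arm, it held for 2 of 26 members named 3p, 1 of 25 named 5p and 2 of 10 with no arm given. By gene place, 50 members had their gene inside Sfmbt2 and 2 of these were detected (miR-466h-3p and miR-669f-3p). Of 8 members with a gene only outside Sfmbt2, 3 were detected (miR-466i-5p, miR-467f and miR-669n). The share of spots well above background was 1.17% in normoxia and 0.767% in hypoxia for the members inside Sfmbt2, against 20.9% and 20.2% for those outside. Over all miRNAs it was 9.81% and 8.50%. Without miR-466i-5p, the members outside Sfmbt2 had 19 of 205 spots (9.27%) well above background in normoxia and 17 of 203 (8.37%) in hypoxia. For miR-466f-3p and miR-466f-5p, 3 of 4 gene copies were inside, and miR-466a-5p matched no gene in the table. No array miRNA other than members had its gene inside Sfmbt2, so the cluster had no other miRNA to be compared with.

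miR-466i-5p was the brightest member on both arrays and the only member with a measured difference. It had 2 probes with 15 spots each, and all 30 spots were well above background on each array. For the first probe the spots ran from 434 to 589 with a median of 547 in normoxia, and from 485 to 765 with a median of 606 in hypoxia. For the second probe they ran from 549 to 745 with a median of 650 in normoxia, and from 474 to 901 with a median of 748 in hypoxia. Both probes were brighter on the hypoxia array on average, and the spots of the 2 arrays overlapped for both.

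**Figure D2:**
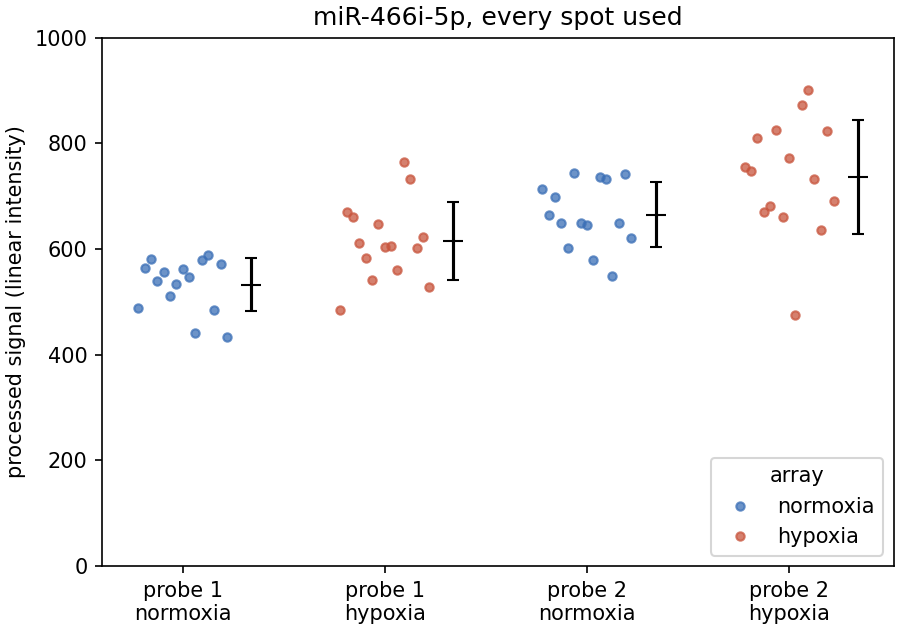
Processed signal (linear intensity, vertical axis from 0) of each spot of miR-466i-5p for its 2 probes in normoxia (blue) and hypoxia (red); black bars give the mean and SD over 15 spots. The means were 532 in normoxia and 615 in hypoxia for probe 1, and 665 and 737 for probe 2, and the ranges of the spots overlapped.

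The mean signal of the first probe was 532 in normoxia and 615 in hypoxia, with an SD over the 15 spots of 9.39% and 12.1% of the mean. The second probe gave 665 and 737, with an SD of 9.28% and 14.6%. Before any scaling, hypoxia exceeded normoxia by 0.21 and 0.15 on the log2 scale for the 2 probes. After quantile normalization, which gives both arrays the same distribution of signals, the differences were 0.47 and 0.53. Their mean was 0.50 ± 0.043 (SE over spots), or 1.41-fold higher in hypoxia. The median over the 180 miRNAs detected on both arrays was 0.17 on the same scale. Of the 179 other miRNAs measured, 64 had a higher difference and 115 a lower one, so miR-466i-5p lay above the middle of the array but not at its edge.

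No member differed by 2-fold among those measured on both arrays, which was miR-466i-5p alone. Among the 180 miRNAs detected on both arrays, 18.3% were at least 2-fold higher in hypoxia and 10% at least 2-fold lower. miR-466i-5p was higher in hypoxia under each scaling run, from 0.18 (log2) with no normalization to 1.10 with the 75th percentile of all miRNA probes. The latter scaling lifted the median of all measured miRNAs by 0.49 over quantile normalization and was the only one to take miR-466i-5p past 2-fold. Relative to that median the value moved less, from 0.29 to 0.45 over all settings run. Both percentile scalings, both spike-in scalings and no normalization shift all log2 differences alike. They had to give the same value here, 0.45, so their likeness says nothing of stability.

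The partner strand of the same hairpin was not detected. The probes of miR-466i-3p, whose sequence of A and C repeats is shown above, gave means of 1.05 and 7.20 in normoxia and of 0.985 and 7.66 in hypoxia, with no spot well above background in 28 and 27 spots. The same held for the partners of the other detected members that have one on the array. miR-466h-5p had no such spot in 29 and 27 spots, and miR-669f-5p none in 29 and 29.

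The members detected in normoxia only lay close to the detection limit. miR-466h-3p, with its gene inside Sfmbt2, was detected at 1 of its 2 probes. That probe gave 19.1 ± 3.60 in normoxia (14 spots, of which 12 were well above background) and 12.9 ± 3.20 in hypoxia (15 spots, 2 above). The other probe gave 13.4 with 4 of 15 spots above and 6.98 with 1 of 14, so both probes were dimmer in hypoxia before normalization. The lowest detected signal was 14.5 in normoxia and 13.5 in hypoxia, and the bound that this leaves after quantile normalization was at least 1.03-fold lower in hypoxia.

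miR-467f, with its gene on chromosome 11, was also detected at 1 probe of 2. It gave 15.3 ± 3.09 in normoxia (8 of 15 spots above background) and 11.6 ± 3.82 in hypoxia (2 of 15). Its other probe gave 6.10 and 2.89 with no spot above. After quantile normalization the first probe read 12.8 in normoxia and 14.4 in hypoxia, so its direction turned with the scaling and no fold is given.

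**Figure D3:**
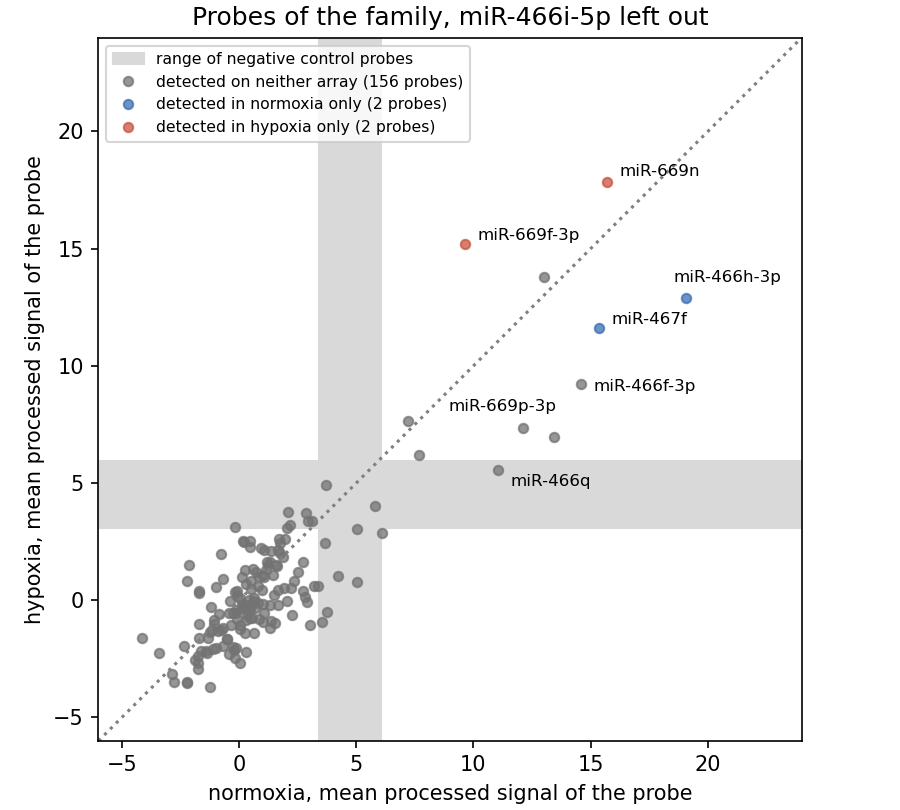
Mean processed signal of each family probe in normoxia (horizontal axis) and hypoxia (vertical axis), linear and before normalization, with the 2 probes of miR-466i-5p left out; colours give the array on which a probe was detected, grey bands the range of the negative control probes and the dotted line equal signal. Most probes lie at or below the bands, and the members with any spot above background stand apart with means of at most 19.1.

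The members detected in hypoxia only were equally dim. miR-669n, a member of the U and G kind with its gene on chromosome 3, gave 15.7 ± 3.20 in normoxia (6 of 15 spots above) and 17.8 ± 3.68 in hypoxia (11 of 15) at its brighter probe. The other probe gave 13.0 (2 of 15) and 13.8 (4 of 15). The difference between the arrays was smaller than the SD over spots, and the normoxia value missed detection by 2 spots. Its bound after quantile normalization was 1.75-fold higher in hypoxia. This is the ratio of its normalized signals (13.0 in normoxia and 22.8 in hypoxia) and not a lower limit. Its own normoxia signal lay above the lowest detected one. With normexp on the median pixel signal in place of the processed signal, and quantile normalization kept, the bound was 0.15 on the log2 scale.

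For miR-669f-3p, with its gene inside Sfmbt2, the detected probe gave 9.64 ± 3.68 in normoxia (0 of 15 spots above) and 15.2 ± 2.78 in hypoxia (8 of 15). The other probe gave 1.36 and 2.10 with no spot above on either array. The bound was at least 1.57-fold higher in hypoxia. Both bounds rest in part on quantile normalization, which raised dim signals of the hypoxia array: without normalization they were 0.18 (log2) for miR-669n and 0.070 for miR-669f-3p.

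No member passed 2-fold by its bound in either direction. On the whole array 47.4% of the 19 miRNAs detected in hypoxia only were at least 2-fold higher by the bound, and 26.7% of the 45 detected in normoxia only were at least 2-fold lower. Each of the 4 members detected on 1 array was called from 1 of its 2 probes, and the call for 2 of them (miR-467f and miR-669f-3p) rested on 8 of 15 spots, which is the fewest that can pass.

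Just outside the call stood 3 members with some spots above background. miR-466f-3p gave 14.6 ± 5.84 at 1 of its 4 probes in normoxia (3 of 7 spots above) and 9.21 ± 4.28 in hypoxia (0 of 7). miR-466q, of the A and C kind, gave 11.0 ± 3.67 (3 of 15) and 5.57 ± 3.38 (0 of 15) at 1 of its 2 probes. miR-669p-3p gave 12.1 ± 6.31 (1 of 7) and 7.35 ± 4.10 (0 of 7) at 1 of its 4 probes. All 3 were dimmer in hypoxia before normalization, by less than the SD of the normoxia spots for miR-466f-3p and miR-669p-3p and by more than it for miR-466q.

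How many members count as detected depended on the call. When every spot of a probe had to be well above background, 1 member passed on each array, miR-466i-5p, against 10.5% of all miRNAs in normoxia and 8.08% in hypoxia. When 1 spot was enough, 7 members passed in normoxia and 5 in hypoxia, against 14.3% and 14% of all miRNAs. The scanner software's own call also gave 7 and 5, against 13.9% and 12%. In normoxia these last 2 calls added miR-466f-3p, miR-466q, miR-669n and miR-669p-3p, and in hypoxia they added miR-466h-3p and miR-467f.

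The undetected members were also set beside other undetected miRNAs. The 152 member probes of undetected miRNAs had a median signal of 0.451 in normoxia (range -4.13 to 14.6) and of -0.0587 in hypoxia (-3.70 to 9.21). The 3729 probes of other undetected miRNAs had medians of -0.376 (-5.68 to 16.8) and -1.09 (-6.53 to 14.3). The median of the members was the higher on both arrays, their range lay within that of the others, and the difference was not tested.

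Since the family is made of repeats, it was set beside other miRNAs that hold the same letters. The motif UGUGUG, searched on the mature strand, was held by 25 of the 1608 array miRNAs with a RefSeq sequence (1.55%), of which 3 were members (miR-466j, miR-466k and miR-669n). The motif ACACAC was held by 11 (0.684%), of which 4 were members (miR-466i-3p, miR-466q, miR-467f and miR-467g). Of these 7 members, 1 of each kind was detected, on opposite arrays. The 3 other miRNAs with a measured difference and the longest U and G runs are shown, a choice made after their values were seen. They lie at chr5:64970328-64970350 (plus strand) for miR-574-5p, chr5:82798964-82798986 (minus strand) for miR-1187 and chr17:25831406-25831427 (minus strand) for miR-3082-5p, and capitals again mark the seed.
miR-574-5p: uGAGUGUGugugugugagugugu
miR-1187: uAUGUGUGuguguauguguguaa
miR-3082-5p: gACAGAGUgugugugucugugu

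Of the 22 other miRNAs holding UGUGUG, 5 were detected in normoxia and 6 in hypoxia, 5 of them on both arrays. Their log2 differences ran from -0.32 to 1.00 with a median of 0.68, and 4 of the 5 were above 0. In what follows, signals are those of the brightest probe before normalization (SD over 15 spots). Differences are taken after it, as means over the probes that both arrays detected. miR-1187 gave 66.0 ± 7.46 in normoxia and 96.9 ± 16.0 in hypoxia, and a difference of 1.00 ± 0.063 (SE over spots). miR-574-5p, which is known to bind the splicing factor CUGBP1, gave 247 ± 27.1 and 326 ± 31.0, and a difference of 0.79 ± 0.040. miR-3082-5p gave 110 ± 14.1 and 139 ± 17.7 (14 spots), and a difference of 0.68 ± 0.084. These 3 had U and G runs of 11, 13 and 10 bases.

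The other 2 had shorter runs. miR-206-3p, a miRNA of skeletal muscle with a run of 7 bases, differed by 0.16 ± 0.083, and its sign turned with the scaling. let-7b-5p, a member of the let-7 family with a run of 6 bases, differed by -0.32 ± 0.028 as the normalized mean of its 2 probes, and turned to 0.30 with the 75th percentile of all miRNA probes. Its brightest probe alone gave 2549 ± 126 in normoxia and 1389 ± 90.3 in hypoxia before normalization, and a difference of -0.51 after it. The RefSeq table held no sequence for miR-466i-5p, so whether it holds the motif was not read. miR-466i-5p, at 0.50, lay between miR-206-3p and miR-3082-5p under quantile normalization. Without normalization its value of 0.18 stood beside 0.17 for miR-3082-5p. Of the others with a run of at least 8 bases, miR-574-5p (13 bases), miR-1187 (11) and miR-3082-5p (10) were detected on both arrays. miR-32-3p (9), miR-3097-5p (8), miR-6348 (8) and miR-672-5p (8) were detected on neither. Whether run length bears on detection was not tested.

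**Figure D4:**
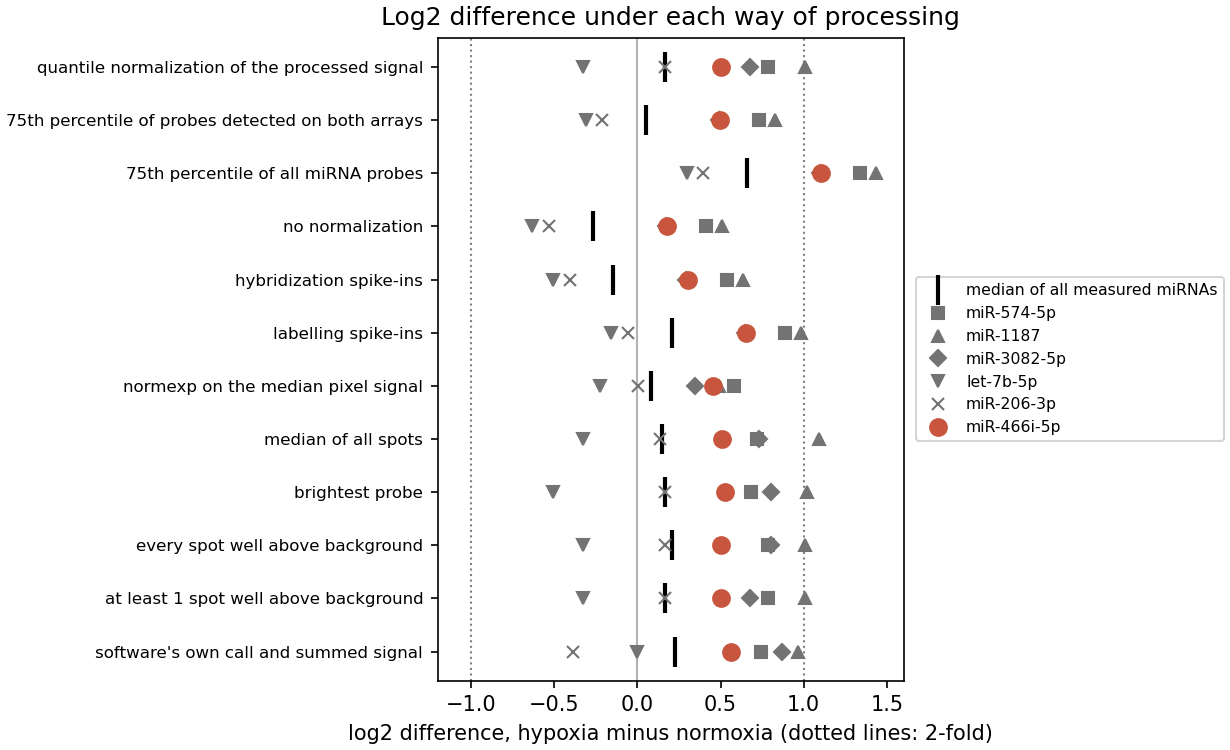
Log2 difference, hypoxia minus normoxia (horizontal axis; dotted lines at 2-fold), of miR-466i-5p (red), of the 5 measured miRNAs outside the family that hold UGUGUG (grey) and of the median of all measured miRNAs (black bar) under each way of processing (vertical axis). miR-466i-5p lies above 0 and above the median in each, and passes 2-fold under the 75th percentile of all miRNA probes alone.

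Among the 7 other miRNAs holding ACACAC, 1 was detected in normoxia and 2 in hypoxia. miR-362-3p, detected on both arrays, differed by 0.17 ± 0.052. miR-574-3p, the partner strand of miR-574-5p, was detected in hypoxia only with a bound of 0.65 on the log2 scale. Of the 4 members holding this motif, miR-467f was detected in normoxia only and the rest on neither array.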

How the data were processed

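Exosomal RNA of normoxic and hypoxic BMSCs was profiled on 1 Agilent miRNA array each. The authors read the images with Feature Extraction 11.5.1.1 (per the file headers), and the deposited intensity values are background-subtracted, detrended processed signals without normalization between arrays. Other deposited values used are outlier and well-above-background flags per spot, the software's summed intensity and detection call, and raw median intensities. The deposited value table equalled the processed signal (largest absolute difference 0). The study names quantile normalization for its own analysis.

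Outlier spots (2.96% in normoxia, 3.45% in hypoxia) were left out, the other spots of a probe averaged, and probe means quantile-normalized (Python 3.11.15, numpy 2.4.6, pandas 2.3.3). Probes detected on both arrays were averaged to the log2 difference of a miRNA. A miRNA detected on 1 array only has a bound, its brightest detected probe against its own signal on the other array or, where higher, the lowest signal detected there, with no fold under 1. SD and SE are over spots inside 1 array and leave out all differences between cultures and isolations. The number of arrays limits the precision. The procedure was tested on simulated data.

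Every member detected on either array is named, and the 3 undetected members with any spot above background. Members, motifs and lists were chosen with earlier results of these data known. Sequences and gene places are from RefSeq tables of GRCm38.p6, matched by miRNA name. Alternatives tried were scaling to the 75th percentile (of all miRNA probes, or of those both arrays detected), no normalization, scaling to hybridization spike-ins or (chosen after seeing the data) labelling spike-ins, normexp (offset 50, limma 3.58.1, R 4.3.3) on the median pixel signal, the spot median, the brightest probe, stricter and looser detection, and the software's own call.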

Additional observations from a re-analysis of the deposited data

How the results depend on the processing

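Detection of members moved with its threshold. In normoxia it held for 1 member where all spots of a probe had to pass, for 7 when 1 spot was enough and for 7 by the software's own call, against 3. In hypoxia the same calls gave 1, 5 and 5, against 3. With the 75th percentile of all miRNA probes, 1 member (miR-466i-5p) was at least 2-fold higher, and the median difference of measured members, which is that of miR-466i-5p, was 1.10. It was 0.18 with no normalization. By the bound, 1 member was at least 2-fold higher with the 75th percentile of all miRNA probes (miR-669n), with 1 spot enough (miR-669f-3p) and by the software's own call (miR-669f-3p). let-7b-5p turned to 0.30 with the 75th percentile of all miRNA probes. miR-206-3p turned to -0.21 with the 75th percentile of the probes that both arrays detected, -0.53 with no normalization, -0.41 with the hybridization spike-ins, -0.056 with the labelling spike-ins and -0.38 with the software's summed signal. The cause was not tested. Over 9 named miRNAs and the alternatives that gave a value, 53 of 88 values moved by less than the SD over spots, 29 moved by more and 6 turned sign. A stricter or looser call leaves a difference unchanged where the same probes pass, as for miR-466i-5p (0.50). Part of the 53 was therefore fixed in advance. The value table equals the processed signal, so its result says nothing of stability. No paired analysis was possible because there is 1 array per condition, and no array could be left out. The 4 members detected on 1 array lay near the lowest detected signal, where a few spots decide a call, and 53 members had no spot well above background. Over all miRNAs, 14.3% had at least 1 such spot in normoxia and 14% in hypoxia.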
